A study of Mus musculus and Rattus norvegicus with 51 samples.

Results

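Complement and coagulation are 2 protease cascades of blood plasma, and most of their soluble components are made in the liver. The set described here was a list of 44 named genes of these cascades, and its members were found by gene symbol in tables of read counts. All 44 were present among the 24421 and 24982 genes of the 2 mouse liver tables. Of the 42 found among the 17327 genes of a rat cell table, 30 had at least 1 count. The members were kept in 3 classes: 34 factors made by hepatocytes, 6 genes of macrophages (C1qa, C1qb, C1qc, Cfp, C3ar1 and C5ar1) and 4 genes with other or mixed sources (Cfd, Cd55, F3 and Tfpi).

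RNA was sequenced from 51 libraries in 16 groups of 3 or 4, of which 39 libraries were whole male mouse liver and 12 were HSC-T6, a rat line of hepatic stellate cells. The study concerned HMGB1, a nuclear protein that acts as an alarm signal outside the cell, in liver fibrosis caused by carbon tetrachloride (CCl4) and in its resolution; its protein forms are labelled [H], [O] and [SO3]. In a first liver table, mice were wild type (WT) or carried the genotype Hmgb1ΔHepΔMye together with either WT HMGB1 or Δ[O] HMGB1, and each genotype received MO or CCl4 for 4 weeks. These 3 genotypes are called WT, knockout + WT HMGB1 and knockout + Δ[O] HMGB1 below, and the labels spell out neither MO, Hep and Mye nor what drives the deletion or the added gene. The name given to these counts includes AAV8, without saying which mice had it. Effects of genotype and of AAV8 between knockout and WT livers therefore cannot be told apart. In a second liver table, all mice were WT: 3 groups had CCl4 for 4 weeks with bovine serum albumin (BSA), [H] HMGB1 or [O] HMGB1, and 3 groups were labelled as regressed, at 1 week, with BSA, [SO3] HMGB1 or an HMGB1 antibody (Ab). The cells had BSA, [H], [O] or [SO3] HMGB1 for 6 hours. Ages were not among the labels, and nothing in them says whether numbered libraries came from separate animals or cultures, so the p-values measure the spread between these libraries.

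In complement, C1q with C1r, or mannose-binding lectin (MBL) with MASP proteases, cleaves C4 and C2, the alternative pathway of factors B, D and properdin amplifies C3 cleavage, and C5 to C9 then assemble into a membrane pore. The fragments C3a and C5a signal to myeloid cells through the receptors encoded by C3ar1 and C5ar1. In coagulation, tissue factor (F3) with factor VII, or the contact system of factors XII and XI with kallikrein and kininogen, leads to factor X, thrombin and fibrin, and antithrombin, protein C, protein S and tissue factor pathway inhibitor (TFPI) restrain it. Hepatocytes secrete the soluble factors, whereas C1q is made mainly by macrophages.

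The upstream sequences of 5 members with large changes described below are shown, to set both MBL genes beside a terminal pathway gene and 2 macrophage genes. Each runs 5′ to 3′ on the gene's own strand up to the annotated start, from RefSeq windows of GRCm38.p6, and 35 of the 44 members had such a window. Mbl1 lies at chr14:41151306-41151455 on the plus strand, Mbl2 at chr19:30232778-30232905 on the plus strand, C8b at chr4:104766167-104766316 on the plus strand, C1qb at chr4:136886201-136886350 on the minus strand and C3ar1 at chr6:122856158-122856307 on the minus strand. Capitals in Mbl1 and Mbl2 mark a run of 13 bases that both share, and capitals in C1qb mark the core GAGGAA bound by PU.1, a myeloid factor.
Mbl1: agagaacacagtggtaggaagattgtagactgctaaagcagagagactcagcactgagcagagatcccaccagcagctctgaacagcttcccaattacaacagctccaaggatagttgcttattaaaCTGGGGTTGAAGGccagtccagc
Mbl2: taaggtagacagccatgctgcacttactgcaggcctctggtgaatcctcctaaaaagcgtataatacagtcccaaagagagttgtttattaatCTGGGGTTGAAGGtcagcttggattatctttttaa
C8b: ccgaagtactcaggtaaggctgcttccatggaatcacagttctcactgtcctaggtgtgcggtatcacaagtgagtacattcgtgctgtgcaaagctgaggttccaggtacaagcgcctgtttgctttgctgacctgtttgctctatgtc
C1qb: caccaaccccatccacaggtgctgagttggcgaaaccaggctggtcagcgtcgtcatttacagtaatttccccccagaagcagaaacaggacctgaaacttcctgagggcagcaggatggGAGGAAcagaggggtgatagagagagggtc
C3ar1: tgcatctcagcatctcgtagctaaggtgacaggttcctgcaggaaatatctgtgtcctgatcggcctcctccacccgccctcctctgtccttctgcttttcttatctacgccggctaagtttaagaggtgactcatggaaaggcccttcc
Among the other 27 pairs of the 8 members compared this way, the longest shared run was 9 bases. The counts of matches used whole windows of 150 bases on both strands. Some windows, those of C5ar1, C8g, C6 and F7 among them, lay at least partly within the annotated gene. GAGGAA was found in 1 of 5 macrophage windows (C1qb), in 2 of 26 hepatocyte windows (F7 and Fgb) and in 14.5% of all 32851 windows. GTTAAT, the core bound by HNF1, a factor of hepatocytes, was found in 6 of 26 hepatocyte windows (C4bp, C8a, F13b, Fga, Fgb and Vtn), in 1 macrophage window (Cfp) and in 3.71% of all windows. TTGCNNAA, of C/EBP sites, was found in 6 of 26 hepatocyte windows (C3, C9, F11, F9, Fga and Fgb), in 0 of 5 macrophage windows and in 5.46% of all. These matches describe the letters only.

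Gene counts per library ran from 22598631 to 39323123 in the first liver table, from 8355714 to 16327132 in the second and from 11752661 to 16981255 for the cells. Values are counts-per-million (CPM) after TMM scaling, each table scaled on its own, and fold changes are on the log2 scale with their standard error (SE). A gene is said to rise or fall where edgeR's quasi-likelihood test over all genes of its table gave a Benjamini-Hochberg adjusted p under 0.05. Hmgb1 itself ranged from 72.8 to 77.3 CPM in WT MO livers, 63.9 to 74.7 in knockout + WT HMGB1 MO livers and 131 to 215 in knockout + Δ[O] HMGB1 MO livers; the added gene may give part of these reads, so they do not check the genotype. In whole liver, fewer cells of a type and less RNA per cell cannot be told apart. Scaling matters in the CCl4 comparisons: with library totals alone, the median log2 difference of all genes moved up by 0.46 in WT, 0.30 in knockout + WT HMGB1 and 0.17 in knockout + Δ[O] HMGB1. Knockout + WT HMGB1 MO library 3 and knockout + Δ[O] HMGB1 CCl4 library 5 stood apart from their groups in several hepatocyte members, as given below.

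In WT livers, CCl4 was followed by lower transcripts of most hepatocyte members and higher transcripts of the C3a and C5a receptors. Of the 44 members, 29 passed the test, against 46.3% of all 14129 genes tested, and 26 of them were lower, against 23.5% of all genes. Among the hepatocyte members 25 of 34 fell and 0 rose, with a median of -0.72, where the median of all genes was -0.004. With library totals alone, 12 hepatocyte members were lower and 3 higher, and the split over all members was 7 higher and 12 lower in place of 3 higher and 26 lower. That fit called 8057 of all genes in either direction. The hepatocyte markers fixed as a list (Alb, Ttr and others) were lower in 5 of 7, with a summed level of 144600 to 162300 CPM in MO and 89260 to 128000 CPM in CCl4 livers; their part in the result was not tested.

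The terminal pathway held the largest falls. C8b, a chain of the pore component C8, was at 677, 837 and 796 CPM in the WT MO livers and at 234, 192, 234 and 264 CPM in the WT CCl4 livers, a change of -1.74 (SE 0.27, adjusted p = 3.59e-05). C8g, the third C8 chain, was at 344, 362 and 463 CPM in MO and at 169, 136, 145 and 129 CPM in CCl4 livers (-1.43, SE 0.18, adjusted p = 3.9e-06). For both genes every CCl4 library lay below every MO library, whereas C8a, which neighbours C8b on chromosome 4, fell by 0.59 (adjusted p = 0.0276). C6, which joins the growing pore after C5b, went from 454, 545 and 525 CPM to 222, 163, 225 and 107 CPM (-1.51, SE 0.50, adjusted p = 0.0205), and its call was lost without MO library 2, CCl4 library 2 or CCl4 library 4. The call of C8a was lost without MO library 1 or 2 or CCl4 library 1 or 4. C9, the pore-forming unit, changed by -0.92 (adjusted p = 0.0042).

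In the lectin pathway Mbl1 and its protease Masp2 fell in WT livers, while Mbl2 and Masp1 did not pass the test. Mbl1 was at 236, 229 and 304 CPM in MO and at 101, 88.0, 110 and 88.5 CPM in CCl4 livers (-1.40, SE 0.15, adjusted p = 6.81e-07), with no overlap. Masp2 was at 345, 337 and 372 CPM and then at 160, 125, 170 and 209 CPM (-1.08, SE 0.16). Mbl2, the second MBL gene of the mouse, had -0.40, and Masp1 had 0.46 (adjusted p = 0.0512). In the classical pathway C2 fell from 270, 284 and 271 CPM to 112, 99.4, 134 and 90.5 CPM (-1.34, SE 0.14, adjusted p = 6.48e-07), and C1ra (-1.07) and C4b (-0.68) fell too. C3, the central component, was at 13753, 11173 and 10687 CPM in MO and at 12799, 13575, 16306 and 16895 CPM in CCl4 livers, with overlap, and with 0.33 it did not pass. Counts of C2 and Cfb, C4b and C4a, and C1ra and C1rb can be split between overlapping or near-identical genes and are uncertain. Among the regulators C4bp changed by -0.68, Serping1 (C1 inhibitor) by -0.64 and Vtn by -0.59, all passing, while Cfi had -0.20. Vtn lost its call without MO library 3 or CCl4 library 2.

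Hepatocyte coagulation members fell in the same comparison, except for the fibrinogen chains and factor V. F7, the partner of tissue factor, was at 158, 151 and 164 CPM in MO and at 67.0, 54.4, 69.2 and 68.9 CPM in CCl4 livers (-1.28, SE 0.14, adjusted p = 1.22e-06). Klkb1, plasma prekallikrein, was at 475, 435 and 456 CPM and then at 200, 133, 282 and 203 CPM (-1.15, SE 0.17). Neither gene's groups overlapped. F10, F9, F12 and F11 changed by -0.98, -0.86, -0.73 and -0.72, and thrombin's gene F2 by -0.65, all passing. Of the anticoagulants, Pros1 changed by -0.91, Serpinc1 (antithrombin) by -0.82 and Proc by -0.77. Kng1, kininogen, changed by -0.57 and F13b, the carrier subunit of factor XIII, by -0.75; Kng1 lost its call without MO library 1 or 3 or CCl4 library 1 or 2, and Proc without MO library 3. Fga, Fgb and Fgg, the chains of fibrinogen that lie side by side on chromosome 3, had -0.32, -0.20 and -0.44, and F5 had -0.03; these 4 did not pass. F5 was 0.41 higher (adjusted p = 0.0296) with library totals alone. Tfpi, an inhibitor made largely by endothelium, rose by 0.65 (adjusted p = 0.0204), from 3.17, 4.59 and 4.39 CPM to 7.54, 7.09, 6.29 and 4.41 CPM, with 1 CCl4 library inside the range of the MO libraries, and it lost its call without MO library 1 or CCl4 library 1.

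The macrophage members did not move as one in WT livers. C5ar1, the C5a receptor, was at 1.44, 2.19 and 1.52 CPM in MO and at 9.30, 10.7, 7.71 and 5.94 CPM in CCl4 livers (2.30, SE 0.34, adjusted p = 2.22e-05). C3ar1, the C3a receptor, went from 5.76, 5.57 and 6.56 CPM to 17.0, 15.4, 13 and 9.67 CPM (1.21, SE 0.26, adjusted p = 0.000936). All 4 CCl4 libraries lay above all 3 MO libraries for both receptors. C1qa, C1qb and C1qc, the 3 chains of C1q, had -0.24, -0.14 and -0.19 and did not pass. Cfp, properdin, the stabiliser of the alternative pathway convertase, fell by 1.11 (adjusted p = 0.00189), from 45.5, 46.3 and 57.3 CPM to 27.8, 20.3, 25.8 and 18 CPM; with library totals alone it had -0.65 and did not pass (adjusted p = 0.0695). Macrophage markers (Adgre1, Cd68, Csf1r, Clec4f, Vsig4, Cd5l, Marco and Timd4) split as the members did. Of these 8, 2 were higher and 3 lower, with a sum of 658.1 to 696.8 CPM in MO and 445.7 to 639.8 CPM in CCl4 livers. Markers of infiltrating macrophages were higher in 5 of 6, with sums of 60.31 to 77.94 and 162.6 to 294.3 CPM. Their part in the receptors' rise was not tested.

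**Figure D1:**
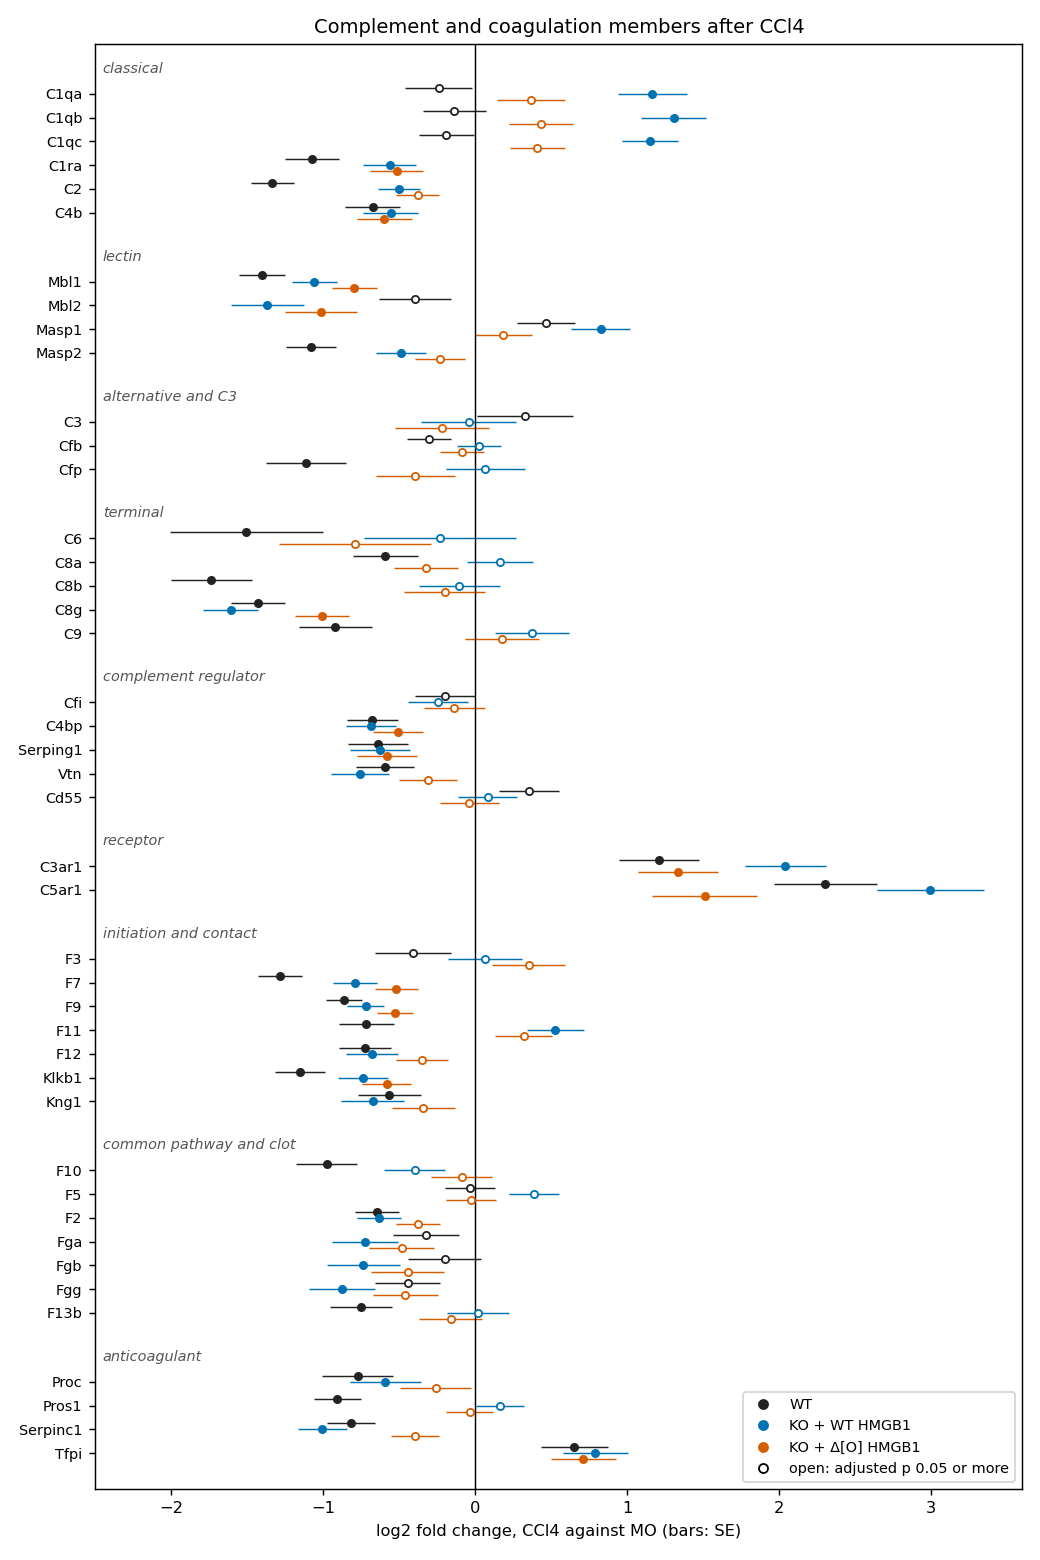
Log2 fold change of CCl4 against MO livers for 43 members (rows; Cfd, near 0 counts, is left out) in the 3 genotypes (colours), with bars of 1 standard error; filled points passed at adjusted p under 0.05 and open points did not. Most hepatocyte members lie left of 0, C3ar1 and C5ar1 lie right of 0 in all 3 genotypes, and the C1q chains lie right of 0 with filled points in knockout + WT HMGB1 livers.

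In knockout + WT HMGB1 livers CCl4 was followed by higher transcripts of 5 of the 6 macrophage members, the C1q chains included, and lower transcripts of 21 of 34 hepatocyte members. In all 30 of 44 members passed, against 47.3% of all genes, 8 higher (23.3% of all genes) and 22 lower (24% of all genes). The hepatocyte median was -0.58, where that of all genes was -0.03. With library totals alone 12 members were higher and 12 lower, beside 6712 of all genes called in either direction, and 11 hepatocyte members were lower. C5ar1 went from 1.12, 0.711 and 1.41 CPM to 6.11, 8.99, 9.60 and 10.5 CPM (3.00, SE 0.35, adjusted p = 3.36e-06). C3ar1 rose by 2.04 (SE 0.27). C1qb rose from 77.1, 60.4 and 91.2 CPM to 149, 167, 225 and 213 CPM (1.31, SE 0.21, adjusted p = 7.34e-05), C1qa by 1.17 and C1qc by 1.15, and the CCl4 libraries lay above the MO libraries for each chain. Cfp was at 44.4, 42.9 and 66.1 CPM in MO and at 59.3, 60.4, 52.8 and 41.9 CPM in CCl4 livers and did not pass. Macrophage markers were higher in 7 of 8, with a sum of 393.2 to 628.5 CPM in MO and 1270 to 1361 CPM in CCl4 livers. Their part in the rise of C1q was not tested. Hepatocyte markers were lower in 3 and higher in 1 of 7, with sums of 102800 to 146200 CPM in MO and 87230 to 97960 CPM in CCl4 livers, and their part was not tested either.

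Among the hepatocyte members of these livers the lectins and C8g changed most. C8g went from 381, 382 and 232 CPM to 136, 118, 97.3 and 83.4 CPM (-1.61, SE 0.18, adjusted p = 2.21e-06). Mbl2 was at 466, 459 and 635 CPM in MO and at 178, 271, 172 and 185 CPM in CCl4 livers (-1.37, SE 0.24, adjusted p = 0.000134), and Mbl1 changed by -1.06. Both lectin genes had every CCl4 library below every MO library. Serpinc1 changed by -1.01 and F7 by -0.79, both passing. C8b (-0.10), C8a (0.16) and C9 (0.37) did not pass, so that of the C8 chains C8g alone did. The fibrinogen chains passed here, Fgg with -0.88, Fgb with -0.74 and Fga with -0.73; Fga, Fgb and C4b no longer passed without MO library 3, nor did Fgb without CCl4 library 3. Proc, Masp2 and C1ra, with -0.59, -0.49 and -0.56, each lost the call without MO library 1, and Proc and Masp2 also without MO library 2 or CCl4 library 3 and Proc without CCl4 library 1. Masp1, whose product supports lectin pathway activation, rose from 73.6, 75.6 and 114 CPM to 136, 141, 167 and 177 CPM (0.82, SE 0.19, adjusted p = 0.00161). F11 rose by 0.53 (adjusted p = 0.026), and this call was lost without MO library 3, CCl4 library 4 or CCl4 library 5. C6 was at 289, 255 and 34.5 CPM in MO livers, so that library 3 lay far below the others, and C3 was at 7228, 8061 and 20134 CPM there, with library 3 far above; neither gene passed. Tfpi rose by 0.79 (adjusted p = 0.00509). Cfd, factor D, had 59 counts over the MO libraries and 0 over the CCl4 libraries, a ratio of 31 against a floor of 3 counts over the group.

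In knockout + Δ[O] HMGB1 livers 14 of 44 members passed, against 24.2% of all genes, 3 higher (12.9% of all genes) and 11 lower (11.4%). Of the 34 hepatocyte members 10 fell, and their median was -0.36. Without CCl4 library 5 the count passing was 23 with 19 hepatocyte members lower, beside 28.6% of all genes. Without any one of the other libraries it was 8 to 11, beside 15.1% to 20.7% of all genes. With library totals alone 4 members were higher and 6 lower, beside 3241 of all genes called in either direction. C8g went from 259, 312 and 260 CPM to 143, 138, 121 and 149 CPM (-1.01, SE 0.18, adjusted p = 0.000446). Mbl2 went from 520, 453 and 552 CPM to 167, 273, 192 and 377 CPM (-1.01, SE 0.24, adjusted p = 0.0043) and Mbl1 from 207, 242 and 237 CPM to 117, 116, 115 and 179 CPM (-0.79, SE 0.15). For these 3 genes the groups did not overlap, and CCl4 library 5 was the highest of its group. The other hepatocyte members that fell were C4b (-0.60), Klkb1 (-0.58), Serping1 (-0.58), F9 (-0.53), F7 (-0.52), C1ra (-0.52) and C4bp (-0.51). C8g, Mbl1, Mbl2 and F9 passed in every alternative fit run. C1ra and Serping1 lost their call without any one of 6 of the 7 libraries, all but CCl4 library 5, and C4b, C4bp, F7 and Klkb1 each without 2 to 4 libraries, CCl4 library 3 among them. C3ar1 rose by 1.33 and C5ar1 by 1.51 (SE 0.35, adjusted p = 0.00354), from 1.20, 0.362 and 1.48 CPM to 2.67, 3.87, 3.01 and 2.21 CPM. C1qa, C1qb and C1qc had 0.37, 0.43 and 0.41, the C8 chains C8a and C8b -0.32 and -0.20, and Fga, Fgb and Fgg -0.48, -0.45 and -0.46, and none of these 8 passed. Hepatocyte markers passed in 0 of 7 (0 at an unadjusted p under 0.05). Macrophage markers were higher in 2 of 8 with sums of 391.9 to 620.9 CPM in MO and 417 to 934 CPM in CCl4 livers, and infiltrating macrophage markers were higher in 4 of 6. The part of these lists was not tested. Tfpi rose by 0.71, with overlap, a call lost without any one MO library or CCl4 library 1 or 2, while Cfd had 66 counts in MO and 2 in CCl4 livers, a ratio of 52.7 with a counting interval of 14 to 444, and did not pass without MO library 2.

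These 3 CCl4 comparisons share no library. Called lower in all 3 genotypes were 9 hepatocyte members, C1ra, C4b, C4bp, C8g, Mbl1, F7, F9, Klkb1 and Serping1. Another 9 were lower in 2 genotypes, 11 in 1 and 5 in none. Of all 14129 genes 6.25% were called lower in all 3 genotypes, 11.3% in 2, 17.5% in 1 and 64.9% in none. C3ar1, C5ar1 and Tfpi were higher in all 3, as were 8.69% of all genes. Endothelium markers, listed for Tfpi, went from sums of 88.37 to 140.3 CPM in MO to 92.68 to 114.1 CPM in CCl4 livers of WT mice (1 higher and 2 lower of 5), from 141.6 to 146.7 CPM to 158.5 to 200.7 CPM with knockout + WT HMGB1 (3 higher and 1 lower) and from 139.7 to 146.3 CPM to 143.1 to 189.8 CPM with knockout + Δ[O] HMGB1 (1 higher); their part in the rise of Tfpi was not tested. Cfd was lower in both knockout groups; in WT livers it had 6 counts in MO and 0 in CCl4. Of 4 adipocyte markers, Plin4 was lower after CCl4 in all 3 genotypes and Fabp4 higher, while Adipoq and Plin1 were at or near 0 counts in every group; their part in the fall of Cfd was not tested.

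**Figure D2:**
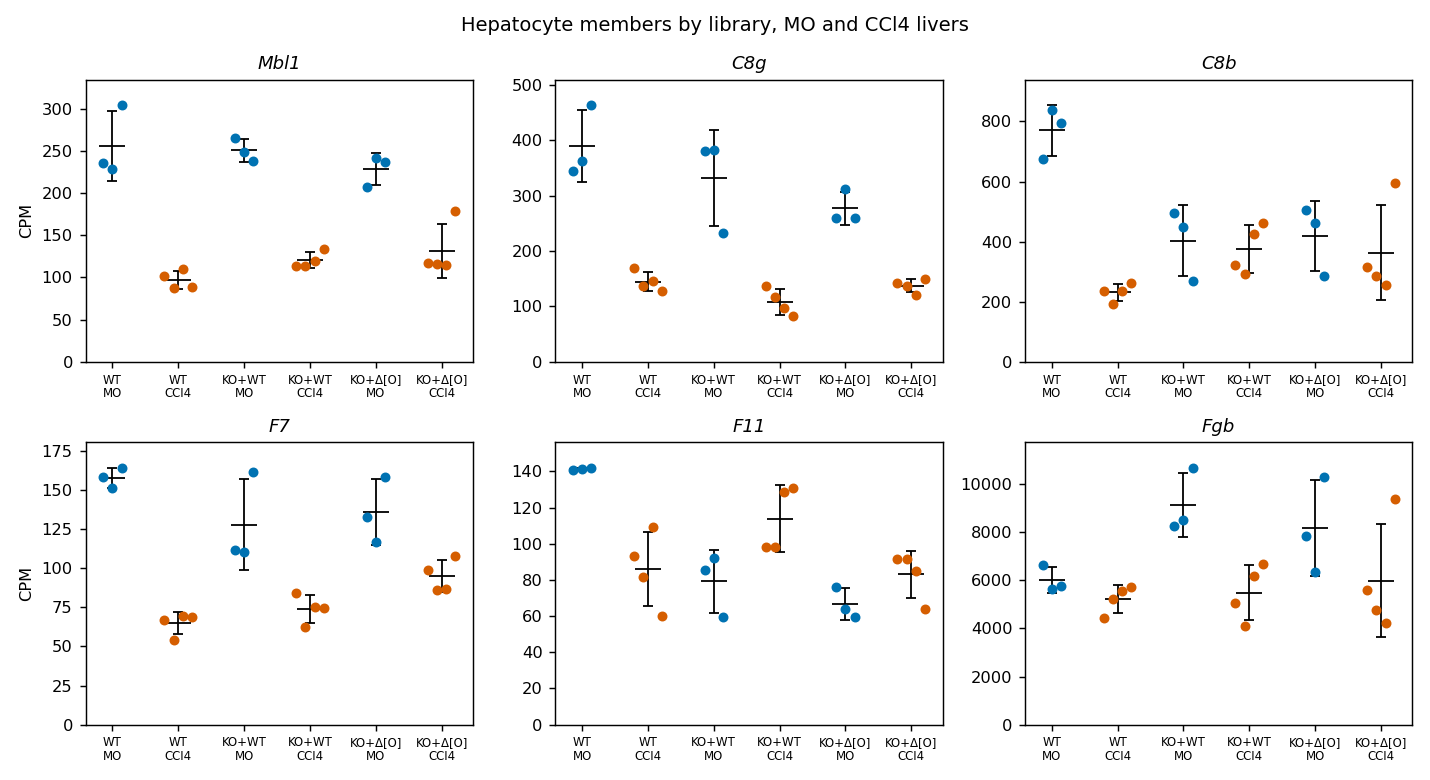
CPM of 6 hepatocyte members in each library (points) of the 6 MO and CCl4 groups (horizontal axis), with mean and SD. Mbl1, C8g and F7 are lower in CCl4 than in MO livers of each genotype, C8b separates MO from CCl4 in WT livers with no overlap, and library 5 of the knockout + Δ[O] HMGB1 CCl4 livers is the highest of its group for Mbl1, C8b and Fgb.

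The next question was whether livers with Δ[O] HMGB1 differed from livers with WT HMGB1 under the same agent. After CCl4, 5 of the 6 macrophage members were lower with Δ[O] HMGB1 and 0 of 34 hepatocyte members passed, against 2.31% of all genes in either direction, 0.113% higher and 2.19% lower. C5ar1 was at 2.67, 3.87, 3.01 and 2.21 CPM with Δ[O] HMGB1 and at 6.11, 8.99, 9.60 and 10.5 CPM with WT HMGB1 (-1.57, SE 0.29, adjusted p = 0.00741). C1qb was at 84.5, 132, 92.2 and 83.1 CPM against 149, 167, 225 and 213 CPM (-0.94, SE 0.19, adjusted p = 0.0121). The libraries of the groups did not overlap for either gene. C1qa had -0.95 (adjusted p = 0.0182), C1qc -0.84 (adjusted p = 0.0113) and C3ar1 -0.89 (adjusted p = 0.0449), while Cfp did not pass. The hepatocyte median was 0.15, with 3 of 34 members at an unadjusted p under 0.05. C5ar1 passed in every alternative fit run for this comparison, whereas C3ar1 lost its call in 11 of 14, without WT HMGB1 library 1, 3, 4 or 5 or Δ[O] HMGB1 library 1, 3 or 5 among them. The count of 5 became 1 when only these 8 libraries were fitted, beside 108 of all genes. It was also 1 without WT HMGB1 library 4 or 5 or Δ[O] HMGB1 library 1 or 3, beside 0.432% to 0.771% of all genes. Macrophage markers moved with the members, 4 of 8 lower with sums of 417 to 934 CPM with Δ[O] HMGB1 and 1270 to 1361 CPM with WT HMGB1. Of 6 infiltrating macrophage markers 1 was lower, and the part of both lists was not tested.

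**Figure D3:**
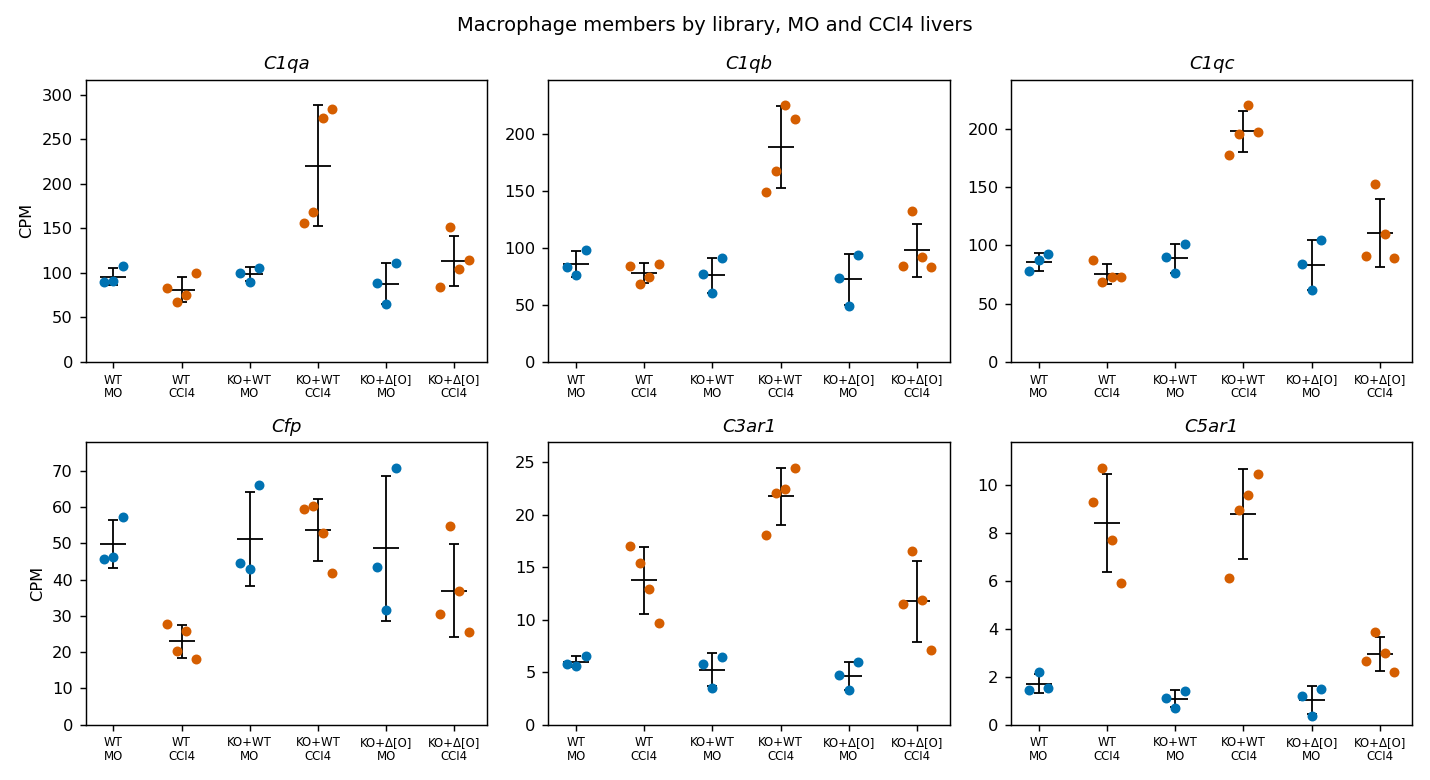
CPM of the 6 macrophage members in each library (points) of the 6 MO and CCl4 groups (horizontal axis), with mean and SD. The C1q chains are highest in the CCl4 livers of knockout + WT HMGB1 mice, and C5ar1 is higher in CCl4 than in MO livers of each genotype and lower with Δ[O] HMGB1 than with WT HMGB1 after CCl4.

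After MO, 0 of 44 members and 0% of all genes passed between the knockout groups in edgeR, with 1 member and 1549 of 14129 genes at an unadjusted p under 0.05. DESeq2 called 0 members and 22 genes there. The difference between the 2 CCl4 responses, tested as an interaction, also gave 0 members and 0% of all genes in edgeR, with 7 members and 2098 genes at an unadjusted p under 0.05. For this interaction DESeq2 called 0 members and 86 genes. All 6 macrophage members had a negative interaction value, with a median of -0.77, and C5ar1 had -1.49 (adjusted p = 0.213). Thus the lower macrophage transcripts were found between the CCl4 groups, whereas a smaller response to CCl4 was not shown for any member. Without WT HMGB1 MO library 3, 4 members passed this interaction, beside 1119 of 14129 genes (7.92%).

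Knockout + WT HMGB1 livers were also set against WT livers, in comparisons that share their libraries with those above. After MO 9 members passed, against 24.2% of all genes: C8b (-0.93), C9 (-0.91), F11 (-0.84), Pros1 (-0.81), F12 (-0.66), C1ra (-0.57), C2 (-0.54) and F9 (-0.40) were lower and Fga (0.67) was higher. With library totals alone the split was 6 higher and 5 lower, beside 4386 of all genes called in either direction. Of these calls 5 were lost when 1 library was left out: C1ra was lost without any one of the 6, Fga without any one but knockout + WT HMGB1 library 2, F9 without WT or knockout + WT HMGB1 library 1 or 2, C8b without WT library 2 or 3 or knockout + WT HMGB1 library 3, and C9 without the last of these. F11, F12, Pros1 and C2 passed without any one library. The count was 5 without WT library 2, beside 16.4% of all genes. Hepatocyte markers were lower in 2 of 7 (median -0.39) and neutrophil markers higher in 3 of 4, with sums of 10.11 to 13.95 CPM in WT and 50.64 to 70.19 CPM in knockout + WT HMGB1 MO livers. Macrophage markers were lower in 2 of 8 and infiltrating macrophage and stellate markers higher in 2 of 6 and 2 of 7, and the part of these lists was not tested. C8b was at 494, 449 and 268 CPM in the knockout + WT HMGB1 MO livers, all below the lowest WT MO value of 677 CPM. After CCl4 9 members passed, against 28.8% of all genes, and the fit with the replicate number as a block gave 14, beside 4414 of all genes. The C1q chains were higher in knockout + WT HMGB1 livers, C1qa by 1.44, C1qc by 1.39 and C1qb by 1.27, as were Cfp (1.22), C3ar1 (0.66), C8b (0.70) and Tfpi (0.63), while Mbl2 (-0.90) and F12 (-0.61) were lower. C8b lost its call without any one of the 4 WT libraries or knockout + WT HMGB1 library 4 or 5, C3ar1 without WT library 2, 3 or 4 or knockout + WT HMGB1 library 3, 4 or 5, and Tfpi without WT library 4 or knockout + WT HMGB1 library 1 or 5; the other 6 passed without any one library. C1qb in the WT CCl4 livers was at 83.9, 68.0, 74.2 and 86.1 CPM, below all knockout + WT HMGB1 CCl4 libraries. Macrophage markers were higher in 7 of 8 and endothelium markers in 4 of 5 (median 0.78) in the same comparison, and their part was not tested. The interaction passed for 9 members, against 13.5% of all genes, all with a higher value in knockout + WT HMGB1 livers: C8b (1.63), C1qb (1.45), C1qa (1.41), C1qc (1.34), C9 (1.29), F11 (1.24), Cfp (1.18), Pros1 (1.07) and C2 (0.83). For C8b, C9, F11, Pros1 and C2 the knockout + WT HMGB1 level was already lower after MO, as given above. With library totals alone 8 members were higher and 1 lower, beside 1888 of all genes called in either direction, and Cfp lost its call in 12 of 20 alternative fits.

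The fibrosis and resolution livers addressed whether giving HMGB1 forms or an antibody changed these transcripts. In the 5 comparisons of a treatment with BSA or of [O] with [H] HMGB1, 0 of 43 tested members and 0% of all 13487 genes passed in edgeR (Cfd was too low to test). At an unadjusted p under 0.05 there were 7 members for [H] against BSA, 1 for [O] against BSA, 6 for [O] against [H], 2 for [SO3] against BSA and 0 for the antibody against BSA, beside 1448, 727, 1413, 812 and 279 of all genes. DESeq2 called 2 members, beside 274 of all genes, for [O] against [H]. In the other 4 it called 0 members, beside 2 genes for [H], 6 for [O], 80 for [SO3] and 3 for the antibody, each against BSA. C3ar1 was at 22.9, 30.9 and 41.9 CPM with BSA, at 10.5, 18.9 and 13.7 CPM with [H] and at 25.6, 44.2 and 36.6 CPM with [O] HMGB1. The 3 values with [H] lay below those of both other groups, and the difference from BSA was -1.15 (SE 0.32, adjusted p = 0.414). C1qb was at 131, 206 and 219 CPM with BSA, at 107, 115 and 105 CPM with [H] and at 213, 201 and 212 CPM with [O] HMGB1, again lowest with [H]. All 6 macrophage members had a negative value for [H] against BSA (median -0.74) and a positive one for [O] against [H] (median 0.92); these comparisons share the [H] libraries. Macrophage markers had medians of -0.93 and 0.93 in these comparisons, with sums of 1062 to 1685 CPM with BSA, 749.2 to 959.8 CPM with [H] and 1462 to 1659 CPM with [O] HMGB1. For [H] against BSA the medians were -1.24 for infiltrating macrophage, -1.70 for neutrophil, -0.79 for stellate and -0.70 for endothelium markers, and for [O] against [H] they were 1.69, 1.83, 0.86 and 0.82. No marker of these lists passed in edgeR, where 3 of 6, 4 of 4, 4 of 7 and 2 of 5 had an unadjusted p under 0.05 for [H] against BSA, and their part was not tested.

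Between BSA livers after 1 week of regression and BSA livers at 4 weeks of CCl4, 5 of 43 members passed, 3 higher and 2 lower, against 9% of all genes, 2.4% higher and 6.6% lower. Mbl1 was higher after regression, at 211, 231 and 213 CPM against 117, 92.4 and 99.8 CPM (1.08, SE 0.21, adjusted p = 0.0151). C8b was at 672, 867 and 732 CPM against 374, 255 and 286 CPM (1.31, adjusted p = 0.0272) and C8g at 314, 325 and 345 CPM against 178, 179 and 129 CPM (1.02, adjusted p = 0.0414). These 3 genes are among the 25 of 34 hepatocyte members that fell with CCl4 in WT livers of the other table. Of all genes there 23.5% were lower. C5ar1 was lower after regression, at 7.39, 8.46 and 5.02 CPM against 18, 70.2 and 19.7 CPM (-2.35, SE 0.59, adjusted p = 0.0293), and C3ar1 had -1.29 (adjusted p = 0.0292). The groups did not overlap for any of the 5 genes. These genes were picked by the test on the same libraries, so that is no separate support. The share without overlap over all genes was not counted. Fibrosis BSA library 2 was far above the others for C5ar1. The count of 5 was 0 without any one of the 3 regression libraries, where 0 to 2 of all genes passed. It was 2 without fibrosis library 2 (4.7% of all genes), 3 without library 3 (10.4%) and 8 without library 1 (17.6%). When only these 6 libraries were fitted it was 1 (Mbl1), beside 91 of all genes. Markers of infiltrating macrophages were lower in 4 of 6, with sums of 239.8 to 552.4 CPM at 4 weeks and 86.21 to 160.3 CPM after regression; their part was not tested.

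**Figure D4:**
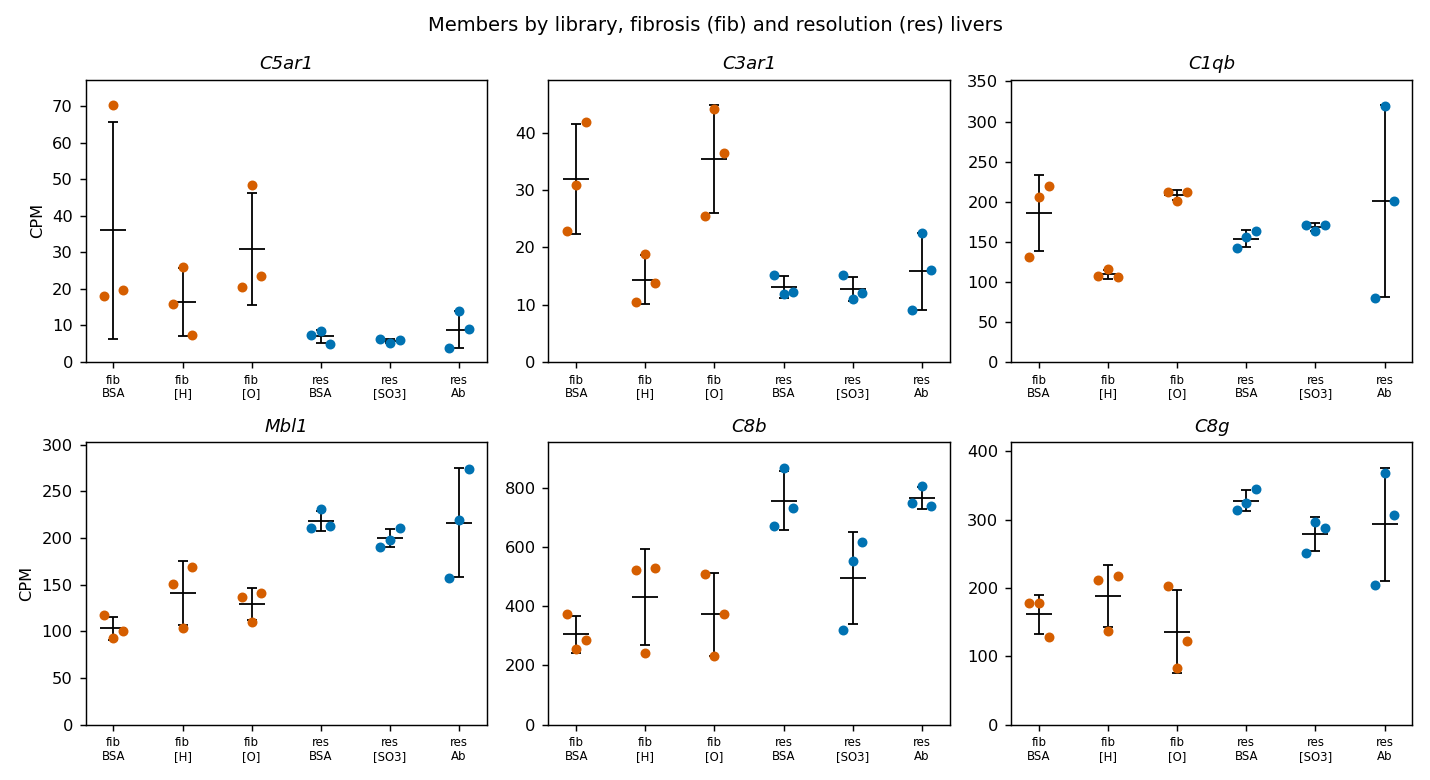
CPM of 6 members in each library (points) of the 3 fibrosis (fib) and 3 resolution (res) groups, with mean and SD. Mbl1, C8b and C8g are higher and C5ar1 and C3ar1 lower in resolution BSA than in fibrosis BSA livers, and C1qb and C3ar1 are lowest of the fibrosis groups with [H] HMGB1, a difference that did not pass the test.

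In HSC-T6 cells 13 members were abundant enough to test. Stellate markers summed to 28640 to 43600 CPM in these libraries, Alb had at most 2 counts over a group, and the macrophage marker Adgre1 had 0. Hepatocyte markers summed to 0.544 to 2.66 CPM, macrophage markers to 0.940 to 3.71 CPM and infiltrating macrophage markers to 805.7 to 1015 CPM. Of the 6 infiltrating macrophage markers 4 were among the rat genes and 2 were abundant enough to test, so few genes made up that sum. The 1 hepatocyte and 1 macrophage marker tested were higher with [SO3] HMGB1 than with BSA (1.87 and 1.26), and their part was not tested. Tissue factor, the trigger of coagulation, and TFPI, its inhibitor, were among the more abundant members. After 6 hours of [O] HMGB1, 7 of 13 members passed, 5 higher and 2 lower, against 43.9% of all 10140 genes, 23.7% higher and 20.2% lower. F3 was at 53.2, 53.7 and 59.7 CPM with BSA and at 144, 150 and 153 CPM with [O] HMGB1 (1.43, SE 0.05, adjusted p = 4.26e-18). Cfb, factor B of the alternative pathway, had 3 counts over the BSA libraries and 461 over the [O] HMGB1 libraries, a ratio of 131 with a counting interval of 44.4 to 636. C3 had 8 and 61 counts, a ratio of 6.48 (3.09 to 15.7), so that Cfb and C3 both rose from near the limit of detection. Cfp, also of the alternative pathway, had -0.02 and did not pass. Serping1 rose by 0.39 and C4b by 0.38, while Masp1 (-0.32) and Cd55 (-0.23), a membrane inhibitor of C3 convertases, fell. C4b lost its call in 6 of 12 alternative fits, without BSA library 1 or 2 or [O] HMGB1 library 2 among them. Tfpi stayed between 120 and 142 CPM in all 12 libraries and did not pass in any comparison with TMM scaling. With library totals alone it passed for [O] HMGB1 against BSA (-0.13, adjusted p = 0.0261) and for [SO3] against [O] HMGB1 (0.16, adjusted p = 0.00419).

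With [SO3] HMGB1 8 of 13 members passed, 3 higher and 5 lower, against 63.3% of all genes, 31.1% higher and 32.2% lower, and F3 was at 79.9, 83.3 and 86.4 CPM (0.59, SE 0.05, adjusted p = 3.39e-10). Cfp rose from 6.26, 4.40 and 4.87 CPM to 9.33, 8.50 and 8.77 CPM (0.77, SE 0.14), and Cd55 rose from 38.6, 38.1 and 41.3 CPM to 50.6, 51.5 and 54 CPM (0.41, SE 0.05). Lower were C4b (-0.53), C8g (-0.49), Serping1 (-0.38), Masp1 (-0.35) and Pros1 (-0.22), and C8g lost its call without BSA library 2 or [SO3] HMGB1 library 1 or 2. Set directly against [O] HMGB1, [SO3] HMGB1 gave 9 called members, against 59.2% of all genes; the comparison shares its libraries with the 2 before. F3 (-0.84, SE 0.05), Serping1 (-0.77), C4b (-0.91), C3 (-1.49), Pros1 (-0.19) and Cfb were lower, and the ratio of Cfb with [O] to [SO3] HMGB1 was 70.4 (33.9 to 176). Cd55 (0.63), Cfp (0.78) and Cfi (0.89) were higher, Cfi with overlap. Cfi lost its call with DESeq2 and without [O] HMGB1 library 1 or 2 or [SO3] HMGB1 library 3, and Pros1 with library totals alone and without [O] HMGB1 library 2. With [H] HMGB1, 1 member passed, against 0.799% of all genes: Cd55, at 33.8, 31.5 and 34.2 CPM, with -0.24 (adjusted p = 0.045), a call lost in 8 of 12 alternative fits, those without BSA library 2 or 3 or without any one [H] HMGB1 library included. F3 was at 54.6, 54.9 and 52.1 CPM with [H] HMGB1, within or near the BSA values.

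**Figure D5:**
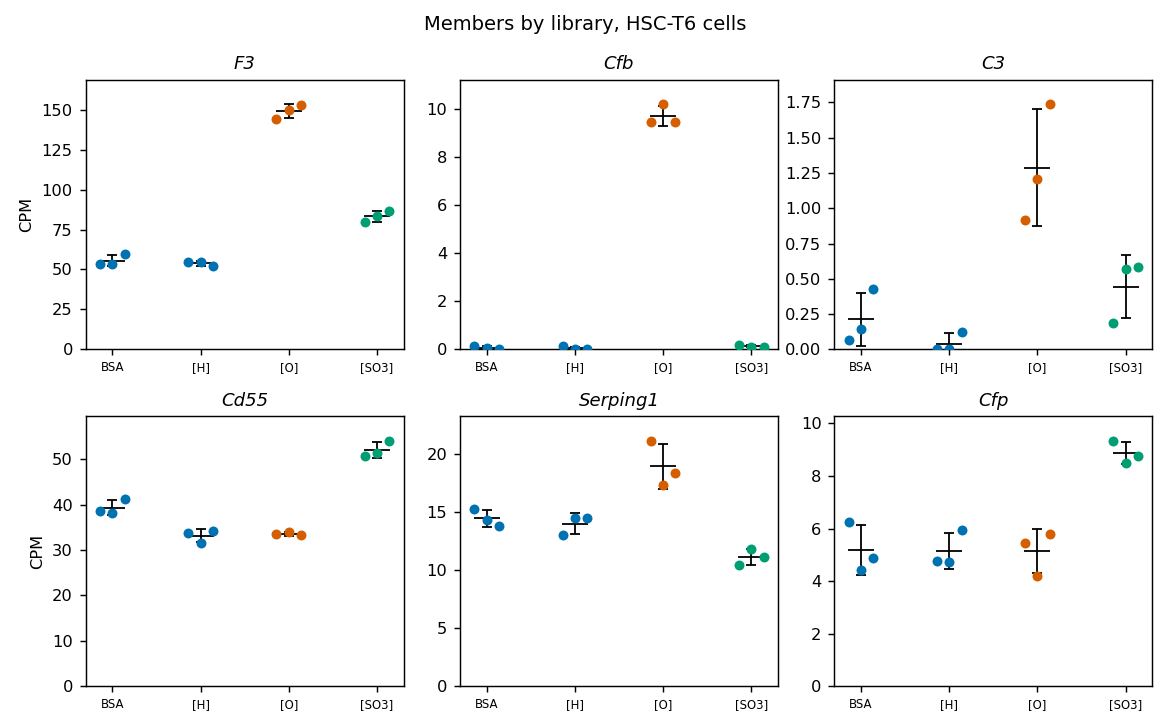
CPM of 6 members in each HSC-T6 library (points) after 6 hours of BSA, [H], [O] or [SO3] HMGB1, with mean and SD. F3 is highest with [O] HMGB1 and intermediate with [SO3] HMGB1, Cfb is at 9.42 to 10.2 CPM with [O] HMGB1 and near 0 in the other groups, and Cfp and Cd55 are highest with [SO3] HMGB1.

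Other genes of the pathways came from a list of 62. In the MO and CCl4 livers, tests covered 54 of them: 11 rose and 21 fell in WT livers (median -0.28), against 22.8% and 23.5% of all genes, 12 rose and 15 fell in knockout + WT HMGB1 livers, against 23.3% and 24%, and 5 rose and 8 fell in knockout + Δ[O] HMGB1 livers, against 12.9% and 11.4%. The largest in WT livers were F13a1 (4.05), the factor XIII subunit of myeloid cells, Itgax (3.50), a chain of complement receptor 4, and Serpina5 (-2.42), the protein C inhibitor. In knockout + WT HMGB1 livers they were Itgax (2.80), Itgam (2.66) and Itgb2 (2.12), and in knockout + Δ[O] HMGB1 livers Serpina5 (2.40), F2rl1 (1.95) and C7 (1.79), where Serpina5 had means of only 0.0504 CPM in MO and 0.263 CPM in CCl4 livers. Between the CCl4 livers, Itgam (-1.70) and Itgb2 (-1.26), the chains of complement receptor 3 (Itgam is also on the list of infiltrating macrophage markers), were lower with Δ[O] than with WT HMGB1 and 0 were higher, against 2.19% and 0.113% of all genes. After regression 2 of 52 were higher and 8 lower than at 4 weeks of CCl4, against 2.4% and 6.6% of all genes, the largest being F13a1 (-5.02), Procr (-2.83) and Itgam (-2.74). In the cells 22 were tested: with [O] HMGB1 3 rose and 4 fell, against 23.7% and 20.2% of all genes, among them Thbd (-3.19), thrombomodulin, C1s (1.06), the protease partner of C1r, and C1rl (0.48). With [SO3] HMGB1 7 rose and 9 fell, against 31.1% and 32.2% of all genes, among them Plg (2.21), plasminogen, Thbd (-1.98) and Procr (0.98), the receptor of protein C.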

How the data were processed

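Total RNA from whole liver (RNAspin kit) and HSC-T6 cells (miRNeasy micro kit) was made into TruSeq Stranded mRNA libraries, per the labels' protocols. The authors deposited whole-number read counts per gene in 3 tables, and the submitters' processing notes name the build mm10. No source used here gives the aligner, the counter or whether strand was used, so overlapping antisense genes cannot be told apart. Rows without a gene (5.50% to 8.51% of the gene counts in the MO and CCl4 table, 31.98% to 35.24% in the cells) and ambiguous reads (0.579% to 1.66% and 0.282% to 0.325%) stayed out of totals and tests, and 0 columns of counts were left without a sample.

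Each table was fitted once over all its groups with edgeR 4.0.16 in R 4.3.3 (robust quasi-likelihood test, TMM factors, low genes removed by filterByExpr at min.count 10 and min.total.count 15), with Benjamini-Hochberg adjustment over all genes tested (14129, 13487 and 10140). SE is the absolute log2 fold change over the square root of F. CPM are counts over TMM-scaled totals; counting intervals and floors (3 counts over a group) are exact at 95% and cover counting error only. DESeq2 1.42.0, RLE factors, library totals alone, no filter, a replicate block, fits of only the compared groups, and leaving out each library were the alternatives.

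Members and gene lists were chosen with earlier results of these data known. Named are the members that passed (where over 12, the 6 with the largest change in each direction and those a role group turns on), members of the same complex, and the 3 largest of other pathway genes. Where compared groups did not overlap for a called member, this describes the libraries the test used and is no separate support. Same-numbered libraries deviated together (every correlation over 0.1) between the fibrosis groups (0.187 to 0.708), the 2 knockout groups after MO (0.289 to 0.454) and after CCl4 (0.108 to 0.261), and the knockout + WT HMGB1 and WT livers after CCl4 (0.116 to 0.313). The block is given beside a result there where it moved a count by over 1.5 times. Sequences are from RefSeq tables of GRCm38.p6.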

Additional observations from a re-analysis of the deposited data

Results flagged for a closer look

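In 10 of 130 sets of 4 libraries (7.69%) the highest or lowest value of a member lay far from the other 3. The members share libraries, so the sets are not independent and this percentage cannot be set against a chance rate. Library 5 of the knockout + Δ[O] HMGB1 CCl4 livers was the highest for 6 hepatocyte members: C3 at 18000 CPM against 8060 to 9320, Vtn at 3470 against 1930 to 2070, C9 at 1070 against 681 to 716, F10 at 663 against 394 to 439, Proc at 553 against 302 to 329, and Mbl1 at 179 against 115 to 117 CPM. Cfd was at 0.0528 CPM in library 3 of that group and at 0 in the others, a pattern that is always flagged whatever the value. F7 was at 54.4 CPM in library 2 of the WT CCl4 livers, against 67.0 to 69.2. In the knockout + WT HMGB1 CCl4 livers C4b was at 1630 CPM in library 1, against 1350 to 1390, and Mbl2 at 271 CPM in library 3, against 172 to 185.

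The interaction of knockout + WT HMGB1 with WT livers passed for 13.5% of all 14129 genes, and that between the knockout groups for 0%. Of 88 interaction terms over 44 members, 9 passed edgeR's quasi-likelihood test with Benjamini-Hochberg adjustment. All 9 were for the CCl4 response of knockout + WT HMGB1 livers minus that of WT livers. They were C8b (1.63, adjusted p = 0.00801), C1qb (1.45, adjusted p = 0.0033), C1qa (1.41, adjusted p = 0.00623), C1qc (1.34, adjusted p = 0.00196), C9 (1.29, adjusted p = 0.0175), F11 (1.24, adjusted p = 0.00425), Cfp (1.18, adjusted p = 0.041), Pros1 (1.07, adjusted p = 0.00361) and C2 (0.83, adjusted p = 0.0094). For the C1q chains the WT response did not pass the test and the knockout + WT HMGB1 response was 1.15 to 1.31. Their cause was not tested.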

How the results depend on the processing

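Of 135 calls on members, 130 were kept with DESeq2, 130 with RLE factors, 133 without the filter, 132 with the replicate block and 99 with library totals alone; 118 of 133 were kept in fits of only the compared groups, and 823 of 983 over all fits that left out 1 library. F5 in WT livers reversed from -0.03 to 0.41 with library totals alone. The WT CCl4 count went from 29 to 19 there, while the count over all genes went from 6542 to 8057. For [H] HMGB1 in the cells the count was 0 with DESeq2, RLE factors and the replicate block, beside 140, 71 and 39 of all genes. For [O] against [H] HMGB1 in fibrosis DESeq2 gave 2, beside 274 of all genes. Fits of only the compared groups gave 1 for regression against fibrosis, 9 for CCl4 in knockout + Δ[O] HMGB1 livers and 1 for Δ[O] against WT HMGB1 after CCl4. In the same order they called 91, 2465 and 108 of all genes. The replicate block gave 23 for CCl4 in knockout + Δ[O] HMGB1 livers, beside 4214 of all genes. It gave 15 for knockout + WT HMGB1 against WT livers after MO, beside 3904 of all genes. Same-numbered libraries in these comparisons had, in that order, correlations of -0.252 to -0.0836 and of -0.231 to -0.0943. After CCl4 the block gave 14 for knockout + WT HMGB1 against WT livers, beside 4414 of all genes, with correlations of 0.116 to 0.313. The labels do not say that numbers pair libraries. The block moved no other count of members by over 1.5 times. Leaving out 1 library gave 26 to 29 calls for CCl4 in WT livers, 27 to 29 in knockout + WT HMGB1 and 8 to 23 in knockout + Δ[O] HMGB1 livers, 0 to 1 and 1 to 5 for Δ[O] against WT HMGB1 after MO and CCl4, 5 to 10 and 6 to 11 for knockout + WT HMGB1 against WT livers after MO and CCl4, and 0 to 4 and 8 to 11 for the interactions. It gave 0 to 8 for regression against fibrosis, 0 to 1 for [H], 6 to 8 for [O] and 7 to 9 for [SO3] HMGB1 in the cells, and 7 to 9 for [SO3] against [O]. Over all genes the share called moved too, from 0% to 17.6% for regression against fibrosis. For CCl4 it ran from 39.2% to 47.5% in WT and 37% to 48.8% in knockout + WT HMGB1 livers. In knockout + Δ[O] HMGB1 livers it ran from 15.1% to 28.6%. For Δ[O] against WT HMGB1 it was 0% to 5.82% after MO and 0.432% to 3.48% after CCl4. For knockout + WT HMGB1 against WT livers it was 16.4% to 24.5% after MO and 22.4% to 26.8% after CCl4. The interactions had 0% to 7.92% and 8.59% to 17.6%. In the cells it was 0.128% to 1.92% for [H], 37.3% to 42% for [O] and 58.1% to 61.5% for [SO3] HMGB1. The cause of these changes was not tested. Depth limits Cfd in all livers and Cfb and C3 in unstimulated cells, where a group held few counts.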
